A study of Mus musculus with 4 samples.

Results

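The Notch pathway was represented by 10 genes of the 24346 in the expression table: the receptors Notch1, Notch2, Notch3 and Notch4, the ligands Jag1, Jag2 and Dll1, and the target genes Hes1, Hey1 and Heyl. They were taken by matching the gene symbol, with no use of the measured values in the match, and all 10 were found. The list itself was chosen with earlier results of these data known. Expression was measured by RNA-seq in mBMSCs, primary mesenchymal stromal cells grown from the femoral marrow of wild-type C57BL/6 mice (C57BL/6J in the methods) aged 3 months, after nonadherent cells had been washed away. The cells received siScr, a scrambled control siRNA, or siZBP1, siRNA against ZBP1, a sensor of Z-form nucleic acids, and RNA was collected 72 h later from 2 samples in each group. Both groups were transfected with the same reagent, no untransfected sample was analysed here, and the sources do not name which of the 2 siRNAs against ZBP1 went into sequencing, or whether both did. The comparison addressed how the loss of ZBP1 changed gene expression. The study gives duplicate samples without saying that they came from separate cultures, so that p-values measure the spread between these samples, which may be technical.

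Notch receptors are single-pass membrane proteins that are activated by Jagged or Delta ligands on a neighbouring cell. Ligand binding exposes the receptor to an ADAM protease and then to the γ-secretase complex, which releases the intracellular domain. This domain enters the nucleus, joins the DNA-binding protein RBPJ and Mastermind, and switches on HES and HEY genes, which encode transcriptional repressors. In marrow stroma the pathway is known for holding mesenchymal progenitors back from osteoblast differentiation, with HES and HEY proteins acting against RUNX2.

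The upstream sequences of the receptors whose expression passed the test, Notch1 and Notch3, are shown because motifs read by the pathway's own factors can be looked up in them. Windows before the RefSeq transcription start (GRCm38.p6) were matched for 7 of the 10 genes, in 8 windows of 250 bases, since Dll1 has more than 1. The RBPJ core TGGGAA, searched on both strands, was in 0 of these 8 windows and in 21.6% of all 32851 windows of that length. The N box CACNAG, a site of HES repressors, searched on both strands, was in 3 of the 8 windows, those of Notch1, Notch2 and Notch3, and in 36.7% of all windows. In the sequences, written 5′ to 3′ on the strand of the gene and ending at the base before the start, capitals mark N box matches.
Notch1: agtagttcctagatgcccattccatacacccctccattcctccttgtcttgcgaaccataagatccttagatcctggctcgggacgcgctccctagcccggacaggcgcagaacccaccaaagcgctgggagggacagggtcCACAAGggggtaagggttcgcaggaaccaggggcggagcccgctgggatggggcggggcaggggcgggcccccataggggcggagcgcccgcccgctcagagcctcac
Notch3: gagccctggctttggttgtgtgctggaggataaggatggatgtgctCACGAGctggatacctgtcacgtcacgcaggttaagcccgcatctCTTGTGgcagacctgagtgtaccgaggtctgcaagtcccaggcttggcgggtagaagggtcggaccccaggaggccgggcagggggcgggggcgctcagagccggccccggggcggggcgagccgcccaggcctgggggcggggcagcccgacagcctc
The Notch1 window is chr2:26503823-26504072 on the minus strand, and the match begins 108 bases before the start. The window lies within the gene as drawn by GENCODE M21, whose outermost transcript begins farther upstream, and shares 2 bases with an annotated exon. The Notch3 window is chr17:32166891-32167140 on the minus strand, with matches that begin 204 and 159 bases before the start, and it overlaps no annotated gene of GENCODE M21. These matches are a description of the letters and do not show binding.

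ZBP1 knockdown was present in both siZBP1 samples. Zbp1 was at 86.0 and 62.0 FPKM (fragments scaled to transcript length and library size) in the siScr samples and at 11.5 and 11.6 FPKM in the siZBP1 samples, a log2 fold change by limma of -2.56 (standard error 0.16, adjusted p = 0.00322). Without siZBP1 replicate 1 or 2 the limma adjusted p for Zbp1 was 0.0618 and 0.0510, with log2 fold changes of -2.55 and -2.57. Limma, a linear model that shares the variance between genes, was run on log2(FPKM + 1) over 11959 genes, those averaging at least 1 FPKM, and adding 1 understates the change of low genes. Of these genes, 14.8% were called lower and 13.5% higher in siZBP1 samples at an adjusted p under 0.05. Summed FPKM per sample ranged from 477974 to 492166, and the spacing of the lowest values gave a rough depth between 10.5 and 19.0 M fragments.

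Notch3 and Notch1 rose and Hes1 fell in siZBP1 cells. Notch3 was 2.98-fold higher and Notch1 1.45-fold higher by the ratio of the group means, and Hes1 was at 0.575 times its siScr level. Of the 10 genes, 5 reached the level needed for the test, of which 2 were called higher, 1 lower and 2, Notch2 and Jag1, neither. The other 5, Notch4, Jag2, Dll1, Hey1 and Heyl, had means under 1 FPKM and were not tested. For 9 of the 10 genes, all but Notch2, the samples of the groups were apart, where 58.3% of the 17788 genes above 0 in any sample did not overlap. The median difference of the 10 genes was 0.14 on the log2(FPKM + 1) scale, beside 0.00077 over all those genes. By the ratio of means, 3 of the 10 were over 1.5-fold higher (Notch3, Jag2 and Dll1), where 10.7% of genes were, and 2 over 1.5-fold lower (Hes1 and Heyl), where 13.8% were.

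**Figure D1:**
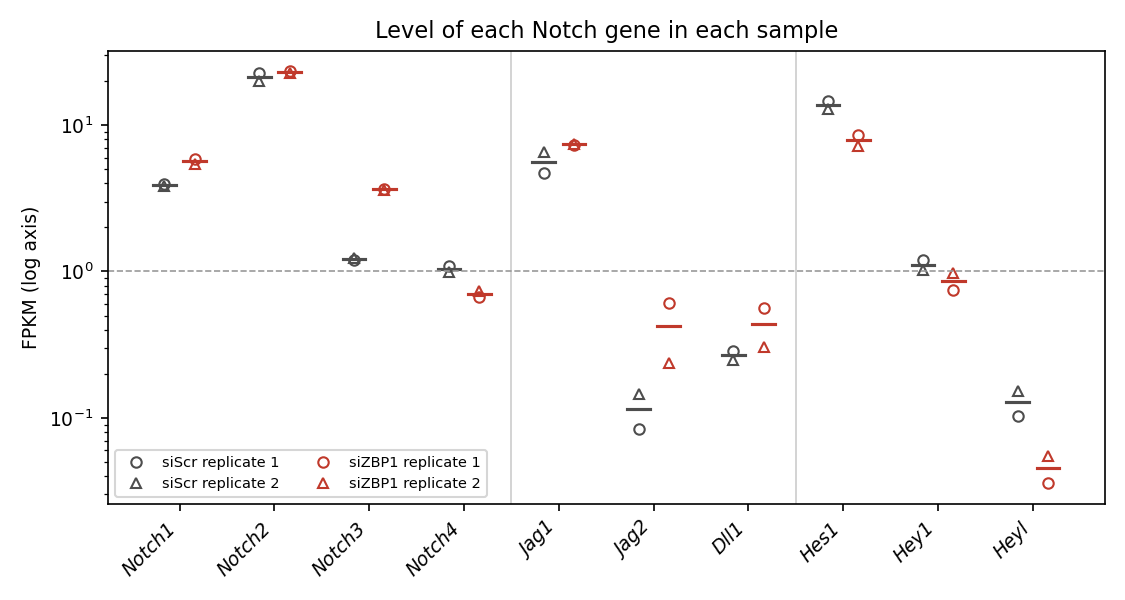
FPKM on a log axis for each of the 10 genes in each of the 4 samples, with receptors, ligands and targets separated by vertical lines. Horizontal bars are group means (n = 2) and the dashed line is 1 FPKM. Both siZBP1 samples lie above both siScr samples for Notch1 and Notch3 and below them for Hes1, while Notch2 overlaps.

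Among the receptors, Notch3, known from vascular smooth muscle and pericytes, changed the most. Its level was 1.20 and 1.24 FPKM in the siScr samples and 3.64 and 3.63 FPKM in the siZBP1 samples. Replicates of Notch3 were nearly equal in both groups, and the samples of the groups were far apart. Its limma log2 fold change was 1.06 (standard error 0.10, adjusted p = 0.00583), which is a 1.74- to 2.51-fold difference of FPKM + 1 at 95% confidence. The rough depth places about 141 and 189 fragments on Notch3 in the siScr samples and 307 and 518 in the siZBP1 samples. The gene lies at chr17:32120820-32166852 on the minus strand of GRCm38. Of its 8089 exon bases, 488 are shared with Gm17276, a gene on the opposite strand that the table does not list, and the sources used here do not say whether counting used strand.

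Notch1, the receptor best known from T cell development and stem cell fate, was at 3.95 and 3.84 FPKM in the siScr samples and at 5.84 and 5.45 FPKM in the siZBP1 samples. Both siZBP1 samples exceeded both siScr samples by more than the replicates differed. The limma log2 fold change of Notch1 was 0.44 (standard error 0.08, adjusted p = 0.0232), or 1.17- to 1.58-fold of FPKM + 1 at 95% confidence. Notch1 lies at chr2:26457903-26516663 on the minus strand, and 1068 and 414 of its 14232 exon bases are shared with 0610009E02Rik and Gm13568 on the opposite strand.

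Notch2, the most abundant receptor per length, was at 22.6 and 20.0 FPKM in the siScr samples and at 23.3 and 22.6 FPKM in the siZBP1 samples. The groups overlapped, since siScr replicate 1 was slightly above siZBP1 replicate 2. The limma log2 fold change of Notch2 was 0.10 with a 95% interval from -0.09 to 0.30 (adjusted p = 0.344), which leaves room for a fold of FPKM + 1 between 0.940 and 1.23. Notch2 lies at chr3:98013527-98150361 on the plus strand, and 541 of its 10782 exon bases are shared with Gm42820 on the same strand.

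Notch4, a receptor known mainly from endothelium, was at 1.09 and 0.984 FPKM in the siScr samples and at 0.673 and 0.740 FPKM in the siZBP1 samples. Both siZBP1 samples were below both siScr samples, a ratio of means of 0.682. Notch4 was not tested in the main fit, and with the limit lowered to a mean of 0.1 FPKM its limma adjusted p was 0.125. It lies at chr17:34564268-34588503 on the plus strand.

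In the make-up of the receptor transcripts, the shares of Notch3 and Notch1 rose and that of Notch2 fell. The level of Notch2 itself did not fall, with means of 21.3 FPKM in siScr and 22.9 FPKM in siZBP1 samples. Notch2 made up 77.6% ± 1.15 (SD, n = 2) of the summed receptor FPKM in siScr samples and 69.7% ± 0.0399 (SD, n = 2) in siZBP1 samples. The share of Notch3 was 4.15% and 4.75% in the siScr samples and 10.9% and 11.2% in the siZBP1 samples. The share of Notch1 was 13.7% and 14.7% in the siScr samples and 17.5% and 16.8% in the siZBP1 samples. Notch4 was the smallest part in both groups, at 3.78% ± 0.000884 (SD, n = 2) and 2.15% ± 0.191 (SD, n = 2). The samples of the groups did not overlap for any of these 4 shares, where the levels of 58.3% of single genes did not overlap. The shares are parts of the same whole, so they are not 4 separate observations. They do not depend on scaling between samples and were not tested.

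**Figure D2:**
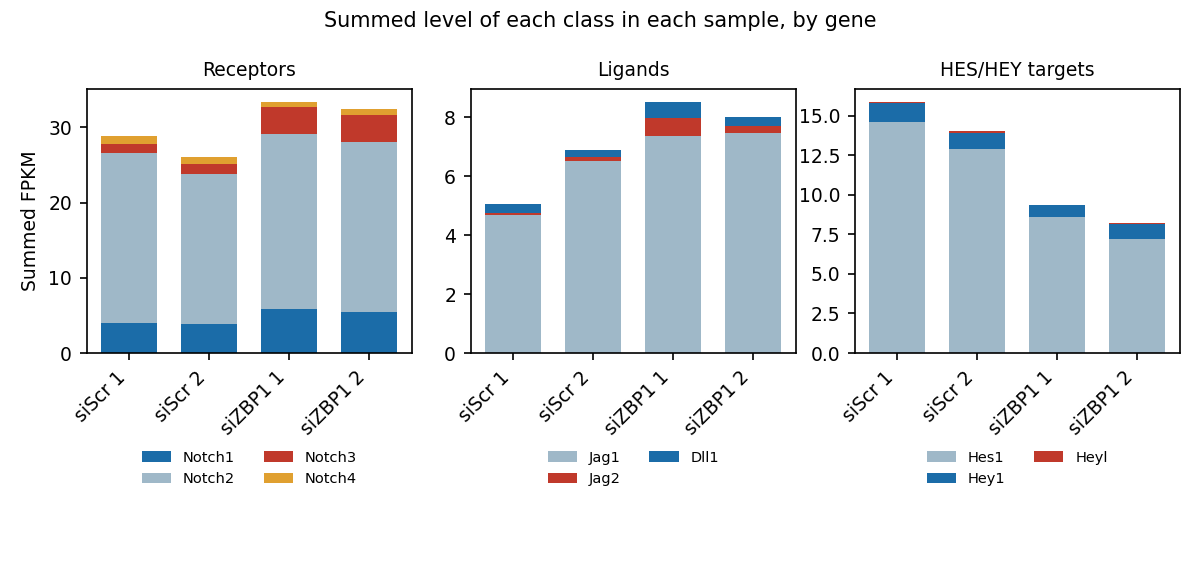
Summed FPKM of the receptors, the ligands and the HES/HEY targets in each of the 4 samples, stacked by gene, each panel with its own linear axis from 0. The receptor sums are 28.8 and 26.1 in siScr and 33.4 and 32.4 in siZBP1 samples, and the target sums are 15.9 and 14.0 in siScr and 9.38 and 8.22 in siZBP1 samples.

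The ligands were carried by Jag1, a membrane ligand expressed by osteoblasts and marrow stroma. Jag1 was at 4.67 and 6.50 FPKM in the siScr samples and at 7.35 and 7.47 FPKM in the siZBP1 samples. Both siZBP1 samples were higher, yet the siScr replicates differed by more than the gap between the nearest samples of the groups, and its log2 fold change by limma, 0.37 (standard error 0.15, adjusted p = 0.140), did not pass the test. Its 95% interval corresponds to a fold of FPKM + 1 between 0.980 and 1.70. Without siScr replicate 2, the higher of the siScr samples, the limma log2 fold change of Jag1 was 0.57 (adjusted p = 0.0299), and without siScr replicate 1 it was 0.16 (adjusted p = 0.224). Jag1 lies at chr2:137081456-137116644 on the minus strand.

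Jag2, the second Jagged ligand, was at 0.0843 and 0.145 FPKM in the siScr samples and at 0.612 and 0.237 FPKM in the siZBP1 samples. The ratio of means was 3.70, but the siZBP1 samples differed from each other more than the nearer of them did from siScr, and the rough depth places about 6.31 and 14.1 fragments on Jag2 in the siScr samples. Dll1, a Delta ligand, was at 0.285 and 0.249 FPKM in the siScr samples and at 0.566 and 0.303 FPKM in the siZBP1 samples. The ratio of means of 1.63 for Dll1 came from siZBP1 replicate 1, since replicate 2 lay just above the siScr samples. With the limit lowered to a mean of 0.1 FPKM the limma adjusted p was 0.178 for Jag2 and 0.358 for Dll1. Jag2 lies at chr12:112907819-112929776 and Dll1 at chr17:15367354-15376872, both on the minus strand, and 867 of the 4219 exon bases of Dll1 are shared with A930024N18Rik on the opposite strand. Jag1 held 93.5% ± 1.14 (SD, n = 2) of the summed ligand FPKM in siScr samples and 89.7% ± 4.99 (SD, n = 2) in siZBP1 samples.

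The 3 targets were lower in every siZBP1 sample than in every siScr sample, where 58.3% of genes did not overlap in either direction. Of the 3, only Hes1 was tested. The 3 ligands were higher in every siZBP1 sample, but only Jag1 was tested and none was called. Hes1, a basic helix-loop-helix repressor that is a direct target of activated Notch and also answers to other pathways, was at 14.6 and 12.9 FPKM in the siScr samples and at 8.60 and 7.19 FPKM in the siZBP1 samples. The samples of the groups were apart by more than either pair of replicates. The limma log2 fold change of Hes1 was -0.73 (standard error 0.11, adjusted p = 0.0143), or 0.493 to 0.738 times FPKM + 1 at 95% confidence. About 314 and 359 fragments in the siScr samples and 133 and 188 in the siZBP1 samples stand behind these levels by the rough depth. Hes1 lies at chr16:30064384-30067796 on the plus strand, and it shares no bases with another annotated gene.

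Hey1, a related repressor that heterodimerises with HES proteins, was at 1.19 and 1.03 FPKM in the siScr samples and at 0.744 and 0.975 FPKM in the siZBP1 samples. The gap between the nearest samples of the groups was smaller than the spread within either group, and the limma adjusted p was 0.312 with the limit at 0.1 FPKM. Heyl, known as a target downstream of Notch3 in smooth muscle, was at 0.103 and 0.154 FPKM in the siScr samples and at 0.0356 and 0.0549 FPKM in the siZBP1 samples. The ratio of means of Heyl was 0.353, with about 1.70 and 4.44 fragments in the siZBP1 samples, so that its level was near the limit of detection in all 4 samples. Hey1 lies at chr3:8663359-8667256 on the minus strand and Heyl at chr4:123233556-123249875 on the plus strand. Hes1 made up 91.7% ± 0.173 (SD, n = 2) of the summed target FPKM in siScr samples and 89.6% ± 2.98 (SD, n = 2) in siZBP1 samples.

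The order of the 10 levels per length was nearly the same in the groups. In siScr samples it ran from Notch2 at 21.3 FPKM over Hes1 at 13.7, Jag1 at 5.59, Notch1 at 3.89, Notch3 at 1.22, Hey1 at 1.11, Notch4 at 1.04, Dll1 at 0.267 and Heyl at 0.128 to Jag2 at 0.115 FPKM, and the samples of Hey1 and Notch4 and of Heyl and Jag2 overlapped. In siZBP1 samples Notch2 stayed at the top with 22.9 FPKM, followed by Hes1 at 7.89 and Jag1 at 7.41, whose samples overlapped. Notch1 followed at 5.64 and Notch3 at 3.63 FPKM, so that Notch3 stood clear of Hey1 at 0.860 and Notch4 at 0.707 FPKM. At the bottom, Dll1 at 0.434 and Jag2 at 0.425 FPKM overlapped, and Heyl was last at 0.0453 FPKM.

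With each sample left out in turn, no gene of the 10 changed direction, but the calls depended on the sample. Notch3, Jag1 and Hes1 were called without siScr replicate 2, and Notch3 alone without siScr replicate 1. None was called without siZBP1 replicate 1 or without siZBP1 replicate 2, when the lone siZBP1 sample was assumed to vary like the siScr samples. The limma adjusted p for Notch3 was then 0.0741 and 0.0645, for Hes1 0.0779 and 0.0861, and for Notch1 0.150 and 0.106. The log2 fold changes moved little, between 1.05 and 1.08 for Notch3, between 0.40 and 0.48 for Notch1 and between -0.84 and -0.62 for Hes1. With 2 samples against 2, the smallest two-sided p that exact permutation can reach for 1 gene is 0.333, so the adjusted p-values rest on the variance shared between genes.

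**Figure D3:**
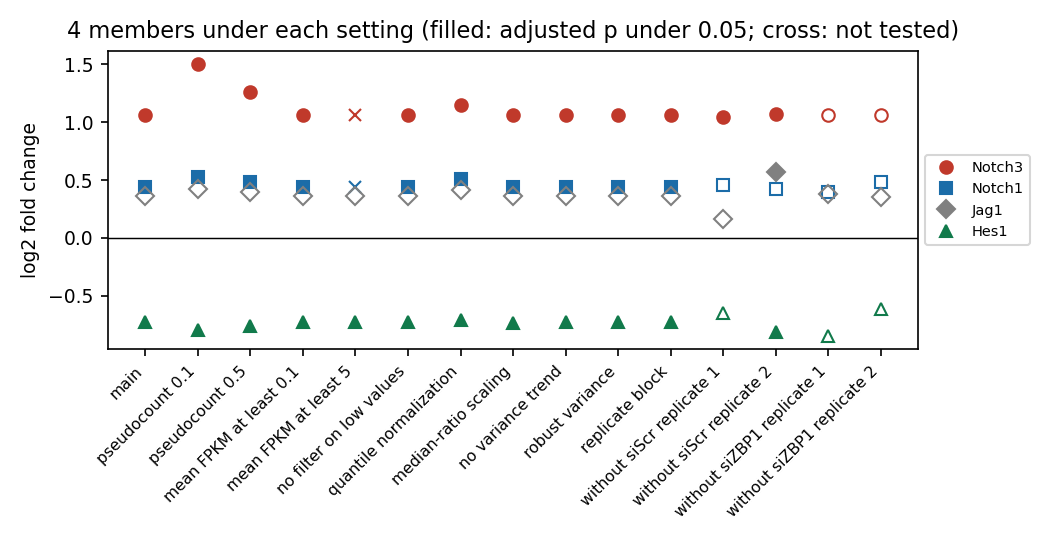
Log2 fold change, siZBP1 over siScr, of Notch3, Notch1, Jag1 and Hes1 in the main fit, under 10 other settings and with each of the 4 samples left out. Filled symbols have a limma adjusted p under 0.05 and crosses mark genes below the expression limit of that setting; Notch3 and Notch1 stay above 0 and Hes1 below 0 throughout, while filled symbols are absent when a siZBP1 sample is left out.

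The rest of the pathway was examined in a list of 55 genes, of which 43 were tested. Of these, 9 were called lower and 8 higher, or 20.9% and 18.6% of those tested, beside the 14.8% and 13.5% over all genes. Calls among the receptor proteases were higher, and calls among the corepressors and glycosylation enzymes were lower. The median difference of the 55 genes was 0.012 on the log2(FPKM + 1) scale.

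The enzymes that cut the receptors were all 10 higher by their group means, of which 4 passed the test and none was called lower. Adam17, a sheddase that can cut Notch at the cell surface, rose from 47.7 and 47.2 FPKM to 58.0 and 60.0 FPKM (limma log2 fold change 0.31, adjusted p = 0.0110). Psenen, a small γ-secretase subunit, rose from 83.1 and 85.5 FPKM to 125 and 109 FPKM (limma log2 fold change 0.47, adjusted p = 0.0154). Aph1c, a γ-secretase scaffold subunit, rose from 4.09 and 4.22 FPKM to 6.53 and 6.66 FPKM (limma log2 fold change 0.56, adjusted p = 0.0109), though reads from its near copy Aph1b could have been split between both genes. The fourth was Furin, which cleaves the receptor precursor, with a log2 fold change by limma of 0.18 (adjusted p = 0.0453), a call that held under 6 of 10 other settings with all samples. Adam10, the main sheddase of ligand-activated Notch, had a log2 fold change of 0.08 (adjusted p = 0.225) by limma and did not pass the test.

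In the nucleus, Rbpj, the factor that carries the Notch intracellular domain to DNA, fell. It was at 54.0 and 59.4 FPKM in the siScr samples and at 39.9 and 42.3 FPKM in the siZBP1 samples, with no overlap and a log2 fold change by limma of -0.45 (standard error 0.07, adjusted p = 0.0126). Of the 8 genes of the nuclear complex, 1 more was called, Kat2b, a histone acetyltransferase, which rose with a log2 fold change by limma of 0.42 (adjusted p = 0.0169). Of the 7 corepressors that RBPJ binds in the absence of Notch, or that act with them, Hdac1 fell from 40.9 and 42.1 FPKM to 31.2 and 31.6 FPKM (limma log2 fold change -0.39, adjusted p = 0.00765). In all, 2 of the 7 were called lower and 0 higher.

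Of the 9 genes for receptor turnover and modification, 7 were tested, 3 fell and 1 rose. Numbl, a homologue of the Notch inhibitor Numb, fell from 13.5 and 11.7 FPKM to 7.07 and 6.70 FPKM (limma log2 fold change -0.78, adjusted p = 0.00875). Numb itself fell with a log2 fold change by limma of -0.35 (adjusted p = 0.0232). Dtx4, a Deltex ubiquitin ligase, rose from 12.6 and 14.5 FPKM to 18.4 and 20.0 FPKM (limma log2 fold change 0.48, adjusted p = 0.0216). The remaining call in this list was Itch, a ubiquitin ligase that acts on Notch, with a log2 fold change by limma of -0.22 (adjusted p = 0.0373), a call that held under 7 of those 10 settings. Nrarp, a Notch target that feeds back on the pathway, was under the limit of the test, at 0.215 and 0.0789 FPKM in siScr samples and at 0.0378 and 0.0231 FPKM in siZBP1 samples.

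Of the 6 genes of receptor glycosylation, 2 fell and none was called higher. Pofut1, which adds O-fucose to the receptor, had a log2 fold change by limma of -0.36 (adjusted p = 0.0306), and Eogt, which adds O-GlcNAc, one of -0.40 (adjusted p = 0.0251). Of the 4 ubiquitin ligases of ligand endocytosis, Mib1 rose with a log2 fold change by limma of 0.22 (adjusted p = 0.0380), called under 8 of the 10 settings. Neurl1a fell, with a log2 fold change by limma of -0.54 (adjusted p = 0.0385), from 1.48 and 1.49 FPKM to 0.682 and 0.740 FPKM, so that it reached the limit of the test through its siScr level, and it was called under 6 of the 9 settings that tested it.

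Of the 6 other HES and HEY genes, Hes6, whose product is known to oppose HES1, was the 1 gene that was tested. Hes6 rose from 15.6 and 15.3 FPKM to 23.5 and 21.5 FPKM (limma log2 fold change 0.52, standard error 0.06, adjusted p = 0.00911), so that Hes6 and Hes1 moved in opposite directions. Hes5, another classical Notch target, was listed at 0 in all 4 samples, and Hes2, Hes3, Hes7 and Hey2 were under the limit of the test. The 5 other Notch ligands, Dll3, Dll4, Dlk1, Dlk2 and Dner, were also all under it, and their summed level was between 0.461 and 0.972 FPKM per sample. No gene of the 55 was called without siZBP1 replicate 1 or without siZBP1 replicate 2. Without siScr replicate 1 the counts were 3 lower and 3 higher, and without siScr replicate 2 they were 5 and 6.

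**Figure D4:**
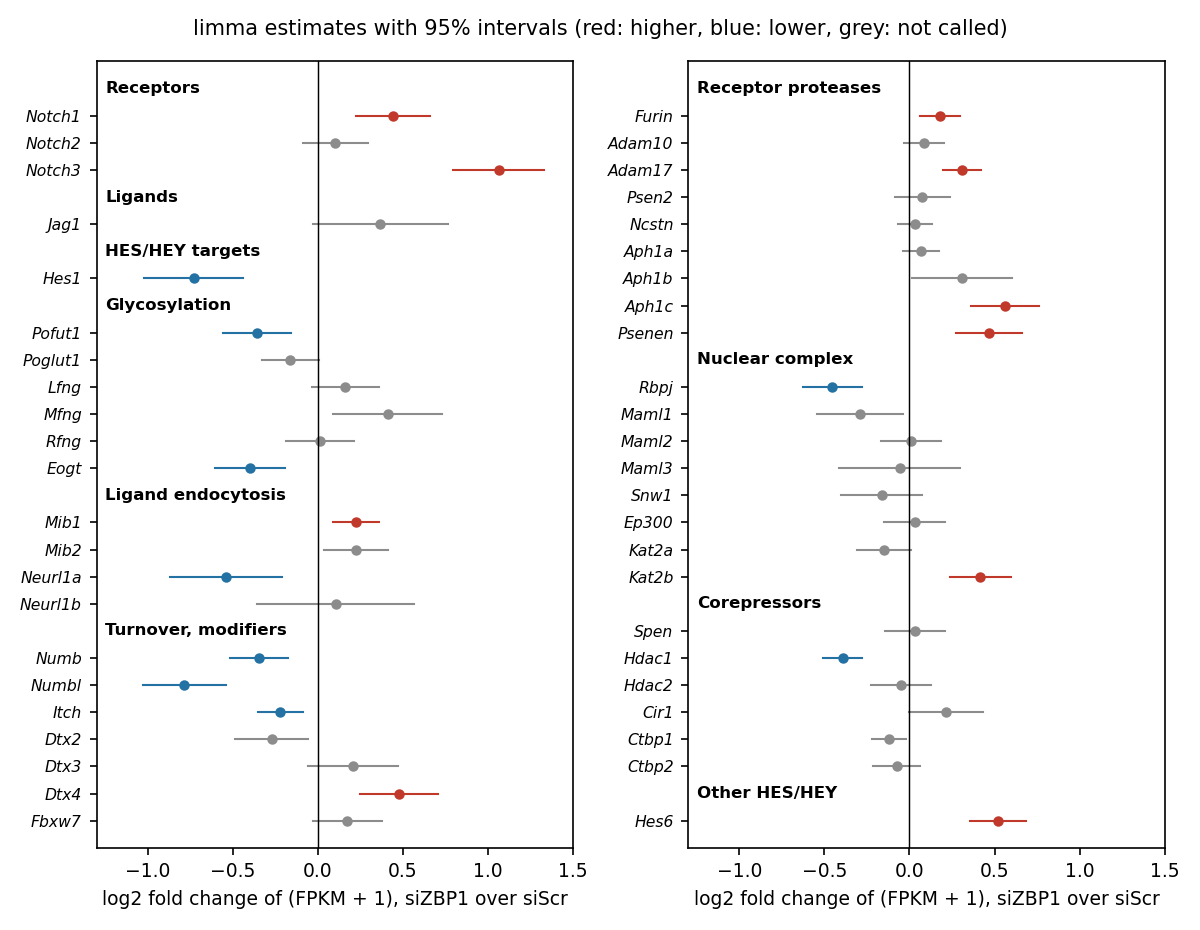
Limma log2 fold changes of FPKM + 1, siZBP1 over siScr, with 95% intervals for the 5 tested receptor, ligand and target genes and the other tested pathway genes that are reported singly, grouped by role. Red marks genes called higher, blue called lower and grey not called; all receptor proteases shown have estimates above 0, while Rbpj, Hdac1, Numb and Numbl lie below 0 as does Hes1.

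Markers of the cells that such a culture can hold moved as well. Of 16 macrophage markers, all tested, 11 were called higher and 0 lower by limma, against 13.5% higher over all genes (0 higher without siZBP1 replicate 1 or without siZBP1 replicate 2). The summed macrophage level was 10049 and 11203 FPKM in the siScr samples and 16047 and 15196 FPKM in the siZBP1 samples. Lyz2 was the largest part of this sum, at 2814 and 3647 FPKM in siScr and 5871 and 5402 FPKM in siZBP1 samples. Not called were 5 of the 16, Ptprc, Adgre1, Cd14, Fcgr1 and Mpeg1, with ratios of means between 0.990 and 1.12. None of the macrophage markers was at 0. Csf1r, the receptor that defines the lineage, was at 467 and 470 FPKM in siScr and at 584 and 558 FPKM in siZBP1 samples, so that the adherent stromal culture held abundant macrophage RNA in both groups. Of 12 mesenchymal stromal markers, 11 were tested, and 5 were called lower and 1 higher, against 14.8% and 13.5% over all genes. The summed level of the 12 was 5621 and 4693 FPKM in siScr and 3230 and 3270 FPKM in siZBP1 samples. Most of this fall came from Col1a1, at 3066 and 2520 FPKM in siScr and 1128 and 1191 FPKM in siZBP1 samples. Col1a2 was not called, at 2092 and 1806 FPKM in siScr and 1829 and 1811 FPKM in siZBP1 samples. On the log2(FPKM + 1) scale 11 of the 12 had lower means and 1, Nt5e, a higher mean. Without either siZBP1 replicate, 1 stromal marker was called lower. Without siScr replicate 2, 8 were.

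Of 12 mural and smooth muscle markers, cells in which Notch3 and Heyl are known to be expressed, 7 were tested. By limma 6 of them were called lower and 0 higher, against 14.8% and 13.5% over all genes. The summed level of the 12 was 1302 and 1322 FPKM in siScr and 231 and 267 FPKM in siZBP1 samples. Most of it came from Acta2, Tagln, Actg2 and Myl9. The 6 lower calls went the other way from Notch3 and the same way as Heyl. Heyl, with a ratio of means of 0.353, was near the limit of detection and was not tested. On the log2(FPKM + 1) scale 10 of the 12 markers had lower means, and 2, Rgs5 and Des, had higher means. Rgs5, a pericyte marker, was at 0.597 and 0.492 FPKM in siScr and at 0.769 and 0.750 FPKM in siZBP1 samples. Des, a muscle filament gene, was at 0.351 and 0.646 FPKM in siScr and at 0.841 and 0.816 FPKM in siZBP1 samples. Rgs5 and Des were under the limit of the test. Cspg4, of the same list, was called lower, at 2.95 and 2.62 FPKM in siScr and 0.918 and 0.979 FPKM in siZBP1 samples. Like Neurl1a, it reached the limit of the test through its siScr level. Of 12 endothelial markers, 2 were tested and 0 were called by limma, and their summed level was between 11.0 and 11.9 FPKM in the 4 samples. The defining endothelial genes Pecam1 and Cdh5 were at 0.278 to 0.660 and at 0.624 to 1.05 FPKM, and 2 of the 12, Tek and Cldn5, were at 0 in siZBP1 replicate 1. Of the mural list, 1 gene, Kcnj8, was at 0 in the same sample. In bulk samples, fewer cells of a type and less RNA per cell cannot be told apart. The part of these markers in the changes of Notch1, Notch3 and Hes1 was not tested.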

How the data were processed

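FPKM values per gene for 4 samples of mBMSCs (2 siScr, 2 siZBP1) were used as deposited by the authors. TruSeq RNA libraries were sequenced and mapped to mm10 with TopHat (version 2.0.12). The study's methods name HTSeq for the FPKM values and the submitters' processing notes name Cufflinks, and the gene annotation and strand setting are not given in the sources used here. No read counts are used, depth is a rough estimate, and FPKM depends on what else a sample expresses. The 2 columns of group means were not used.

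The trended model of limma (version 3.58.1, in R 4.3.3) was fitted to log2(FPKM + 1) over 11959 genes, those averaging at least 1 FPKM, two-sided, with Benjamini-Hochberg adjustment at 0.05, and was tested on simulated data. Ratios are of group means, with the study's limit of 1.5-fold, for the 16281 genes above 0 in both groups. In the table, 4 rows share a symbol with another row and were kept. Positions came from GENCODE M21 (GRCm38) and sequences from RefSeq (GRCm38.p6), which matched 7 of 10 genes. Python 3.11.15, numpy 2.4.6, pandas 2.3.3 and matplotlib 3.10.9 were used.

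All 10 members are named. Of the 55 other pathway genes, those past the adjusted p are named, up to the 3 largest changes per sublist, with Rbpj and Adam10 in any case; some genes of the list are counted but not reported singly here. Furin, Itch, Nrarp, the other ligands, the other HES and HEY genes and the markers named singly fall outside this rule and were named after their values were seen. The members and lists were chosen with earlier results of these data known. Alternatives were other pseudocounts, filters, scalings, variance models, a replicate block and leaving out each sample. Leaving out samples for Zbp1 and the marker lists was added after seeing the data.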

Additional observations from a re-analysis of the deposited data

How the results depend on the processing

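The direction of all 10 genes was the same under 10 other settings and with each of the 4 samples left out. Notch1, Notch3 and Hes1 were called under every setting that kept all 4 samples and tested them. With a mean of at least 5 FPKM required, 0 of the 10 genes were called higher, since Notch1 and Notch3 were then no longer tested. The median difference of the 10 genes was 0.26 with a pseudocount of 0.1. By ratio of means, 1 gene was lower at a limit of 2-fold, and with 1 added to both means 1 was over 1.5-fold lower and 1 higher. With each sample left out in turn, the 10 genes gave 0 to 1 called lower and 0 to 2 higher, the 55 pathway genes 0 to 5 lower and 0 to 6 higher, and all genes 48 to 1467 lower and 22 to 1248 higher, against 1766 and 1618 with all samples. Over 1.5-fold by ratio of means were 2 to 3 of the 10 genes lower and 2 to 4 higher, and their median difference was 0.061 to 0.22. Fits without 1 sample have 1 sample in a group and fewer degrees of freedom.

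Samples with the same replicate number did not deviate together (correlation across genes -0.063). With 2 samples per group, this single value cannot settle whether the numbers mark a shared culture or batch. With the replicate block, Notch1, Notch3 and Hes1 were called again, 1 of the 10 genes lower and 2 higher, with 7 pathway genes lower and 7 higher, and 1654 of all genes lower and 1465 higher. The calls of Furin, Itch, Mib1 and Neurl1a were lost with the block, at limma adjusted p of 0.0740, 0.0623, 0.0520 and 0.0715. Depth limits Jag2, Dll1, Hey1 and Heyl, whose levels rest on between 1.70 and 47.4 fragments per sample by the rough estimate. Intervals of single genes assume that duplicates stand for the spread of the groups.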
